A study of Mus musculus with 6 samples.

Results

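The 9 genes described here encode the constant parts of mouse antibodies and the chain that joins them: the heavy-chain constant genes Ighm, Ighd, Ighg3, Ighg1, Ighg2b, Ighg2c and Igha, the kappa light-chain constant gene Igkc, and Jchain. They were taken by gene symbol, and all 9 were found among the 31054 features of each deposited matrix. They were measured by droplet single-cell RNA sequencing of lungs from 6 male C57BL/6 mice aged 21 months. In 3 libraries, labelled p16-DTR, the donors were p16-CreERT2/R26-LSL-DTR animals, in which a tamoxifen-activated Cre recombinase driven from the p16 (Cdkn2a) locus switches on a diphtheria toxin receptor, and the other 3, labelled control, had p16-CreERT2 donors, which carry the Cre without the receptor. Both groups were given tamoxifen on 5 days and, 2 weeks later, diphtheria toxin on 5 days, with 2 weeks of recovery before the lungs were taken. Each library mixed 20000 CD45-negative with 9000 CD45-positive cells sorted from the same lung, so the share of blood-derived cells was set by the sort. Each library holds 1 lung, and p-values below measure the spread between these libraries.

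An antibody is made of paired heavy and light chains, and the constant part of the heavy chain sets its class. A naive B cell makes IgM and IgD from a single rearranged gene by splicing one variable exon to Ighm or to Ighd. Class switching later deletes the DNA between the variable exon and a downstream constant gene, so that a cell makes IgG, IgE or IgA in place of IgM. Plasma cells are the end stage that secretes antibody, and J chain, the product of Jchain, joins IgM and IgA units into polymers that the polymeric immunoglobulin receptor carries across mucosal surfaces such as the airway lining.

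The sequences below show the part of the heavy chain that sets the polymer-forming classes apart, the last 60 coding bases of the secreted transcript of 6 heavy-chain genes. Capitals mark the codon before the last amino acid. It is TGC, a cysteine codon, in Ighm and Igha, where this cysteine lies in the tailpiece that bonds with J chain, and GGT, a glycine codon, in the 4 IgG genes.
Ighm: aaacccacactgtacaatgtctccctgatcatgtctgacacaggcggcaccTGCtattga
Igha: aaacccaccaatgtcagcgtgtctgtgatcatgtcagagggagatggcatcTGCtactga
Ighg1: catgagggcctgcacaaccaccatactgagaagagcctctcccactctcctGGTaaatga
Ighg2b: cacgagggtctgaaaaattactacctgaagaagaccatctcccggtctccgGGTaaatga
Ighg2c: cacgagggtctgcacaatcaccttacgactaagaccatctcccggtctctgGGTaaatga
Ighg3: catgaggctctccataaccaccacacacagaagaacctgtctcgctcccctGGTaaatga
All 6 stretches are on the minus strand of chromosome 12 in GRCm38, at chr12:113420867-113420926 for Ighm, chr12:113359665-113359724 for Ighg3, chr12:113328976-113329035 for Ighg1, chr12:113306389-113306448 for Ighg2b, chr12:113287389-113287448 for Ighg2c and chr12:113258768-113258827 for Igha, each inside the last coding exon of the secreted form (GENCODE M21). The order along the locus in the direction of transcription is Ighm, Ighd, Ighg3, Ighg1, Ighg2b, Ighg2c, Ighe, Igha. Igkc lies on chromosome 6 (70726435 to 70726966) and Jchain on chromosome 5 (88519809 to 88527891), so neither is linked to the heavy-chain locus.

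The gene counts do not separate some forms of these genes. Secreted and membrane transcripts of a heavy-chain gene are counted together, as are transcripts with and without a rearranged variable exon. The 4 IgG genes resemble each other, but few stretches of 50 bases are identical between them: Ighg2b and Ighg2c shared the most, 2.66% of the stretches of Ighg2b and 5.49% of those of Ighg2c, and the assignment of reads among the IgG genes is uncertain to that extent. Ighm shared no such stretch with Igha, Ighg1 or Ighd.

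The 6 libraries held 94392 barcodes and 1798134828 unique molecular identifiers (UMIs, 1 per captured RNA molecule), with library totals between 254200305 and 344421685, and 91156 barcodes passed the filters as cells. B cells were gated on 8 or more of 11 B cell markers and plasma cells on 9 or more of 12 plasma cell markers, without use of any immunoglobulin gene. This gave 4992 B cells (604 to 959 per library) and 155 plasma cells (24 to 29 per library), with 82028 other cells, and 3981 cells with mixed markers were left out. Summed B cell markers reached 12239 to 13899 counts per 1000000 UMIs (CPM, over the summed cells of a gate) in the B cell gate against 1091 to 1751 in the plasma cell gate, while plasma cell markers reached 5064 to 7386 in plasma cells against 904 to 1026 in B cells. Cdkn2a, the gene that drives the Cre, was at 7.66 ± 0.79 CPM (SD, n = 3) over all cells of the p16-DTR-labelled libraries and at 2.20 ± 0.91 in the controls. It was thus higher in the libraries in which p16-expressing cells carry the toxin receptor, and every direction given below goes by the labels as deposited. Between 59 and 94 cell barcodes were shared by each pair of libraries.

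Plasma cells were 0.154% to 0.200% of the cells of a library and held most of its antibody RNA. They contained 56.1% to 74.4% of the Igkc UMIs, 67.8% to 85.1% of the Jchain UMIs and 67.3% to 96.8% of the Igha UMIs of a library. Ighm was split more evenly, with 46.6% to 69.4% in plasma cells and 12.9% to 23.0% in B cells, which were 4.09% to 6.11% of cells. Ighd lay mainly in B cells, which held 71.6% to 89.1% of its UMIs, while plasma cells held at most 0.693%. The IgG genes changed place from library to library: plasma cells held 0% to 97.6% of Ighg1, 18.6% to 95.4% of Ighg2b, 0% to 98.1% of Ighg2c and 0% to 54.9% of Ighg3, and the median for Ighg3 was 25.8% in plasma cells against 44.5% in B cells. The cells left out for mixed markers held 12.8% to 30.5% of Igkc, so the gates do not account for all antibody RNA.

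**Figure D1:**
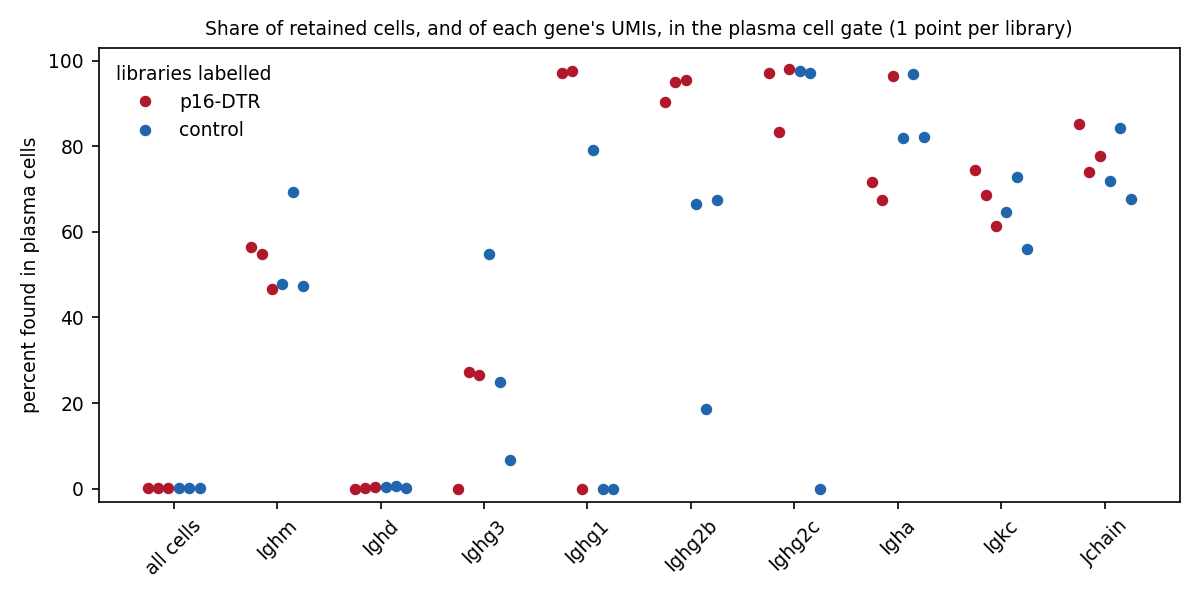
Percent of all retained cells, and of each gene's UMIs, that fell in the plasma cell gate, with 1 point per library in red (labelled p16-DTR) or blue (control). Plasma cells are under 0.2% of cells, yet Igkc and Jchain sit between 56.1% and 85.1% in every library, while Ighd stays near 0 and the IgG genes range from 0% to 98.1%.

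In B cells the levels of the 3 abundant members were close in all 6 libraries. Ighm, the heavy chain of the IgM receptor, was at 2800, 3142 and 2897 CPM in the p16-DTR-labelled libraries and at 2780, 3085 and 2558 in the controls. Ighd, its IgD counterpart, was at 1030, 813 and 934 against 1053, 1120 and 987. Igkc was at 6329, 6147 and 6061 against 6412, 5767 and 5461. The groups overlapped for all 3 genes, and the log2 fold changes were 0.10 (SE 0.07) for Ighm, -0.15 (SE 0.10) for Ighd and 0.10 (SE 0.07) for Igkc, with adjusted p = 0.62, 0.58 and 0.57 by edgeR's quasi-likelihood test with Benjamini-Hochberg adjustment over all genes. For Igkc the overlap rested on 1 cell of control replicate 1, described below.

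The switched heavy chains were low and uneven in B cells, and single cells carried much of their level. Igha, the IgA heavy chain, was at 84.9, 14.8 and 19.6 CPM in the p16-DTR-labelled libraries and at 13.04, 12.9 and 9.76 in the controls. These groups did not overlap, but 1 cell gave 67.2% of the Igha UMIs of the p16-DTR replicate 1 library, and the adjusted p was 0.35 (log2 fold change 1.76, SE 0.63). The log2 fold change was 0.56 without that library, 0.91 without very deep cells and 2.70 with a stricter gate, and it turned to -1.91 when cells of 2 classes were kept. Groups without overlap were found for 1 of the 9 members, against 18.7% of the 13224 genes tested in B cells (6.79% with the p16-DTR label higher). Ighg2b was at 32.8, 56.7 and 39.1 against 399, 28.7 and 24.1. The high value of control replicate 1 came from a single cell with 5384 Ighg2b, 12677 Igkc and 1173 Jchain UMIs, which carried 9 B cell markers and 11 plasma cell markers. Without that cell the library was at 8.88 for Ighg2b, at 3.28 rather than 88.2 for Jchain and at 5523 rather than 6412 for Igkc. The Igkc groups then did not overlap, with the p16-DTR label higher, beside 6.79% of genes in the full B cell sums. That comparison was not tested. Without very deep cells the log2 fold change of Igkc was 0.17 (adjusted p = 0.36 by edgeR). Ighg1 (3.98 to 20.7), Ighg2c (3.52 to 26.9) and Ighg3 (5.36 to 21.9) were low in every library and overlapped between the groups. For Ighg2c, 1 cell gave 78.3% of the UMIs of the p16-DTR replicate 1 library. The Ighg2c log2 fold change of 1.45 became 0.62 without that library and 0.24 without very deep cells.

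**Figure D2:**
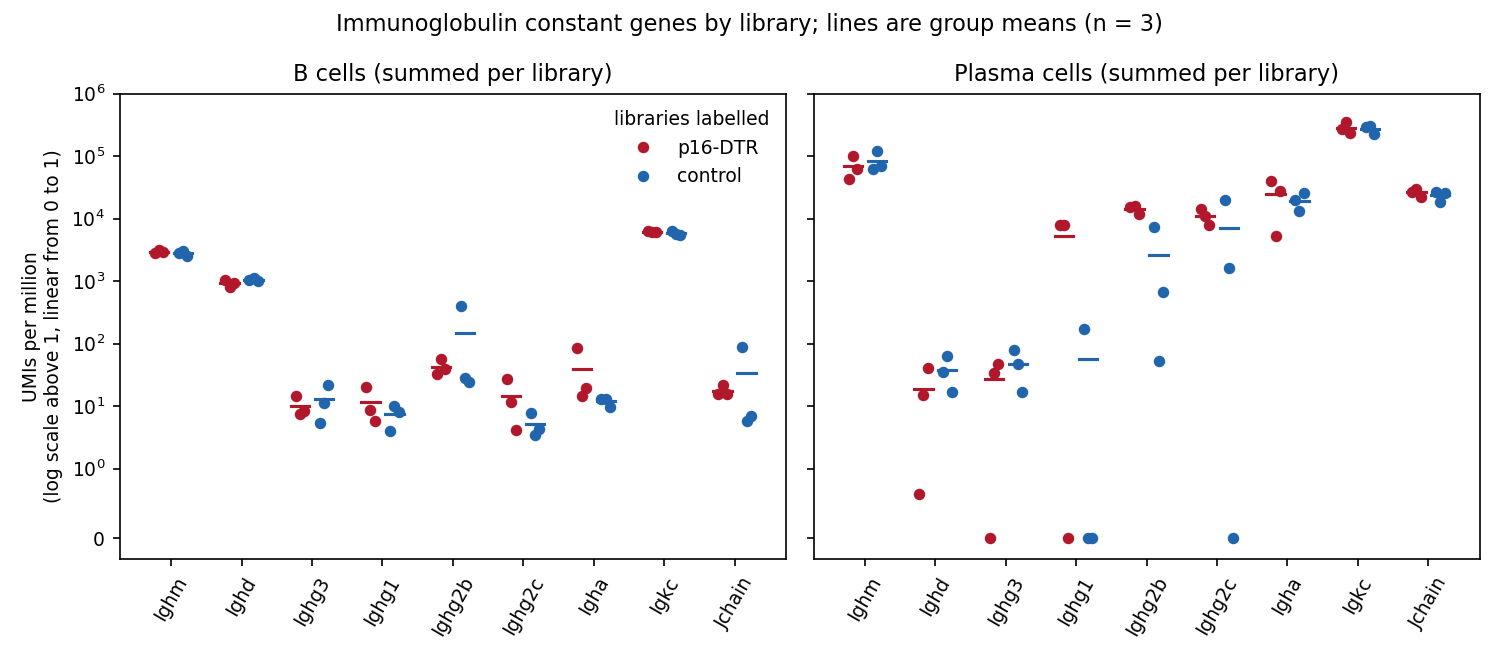
CPM (UMIs per 1000000 UMIs) of each gene in the summed B cells (left) and plasma cells (right) of a library, on a scale that is logarithmic above 1 and linear below it. Points are libraries, 3 per group, and horizontal lines are group means; Ighm, Ighd and Igkc are tight in B cells, whereas Ighg1 in plasma cells spans 0 to 7997.

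Most B cells were unswitched by their leading heavy chain. In each library 90.9% to 96.4% of them had UMIs of both Ighm and Ighd. Of the 4941 B cells with at least 5 heavy-chain UMIs, the most abundant heavy chain was Ighm in 4238, Ighd in 602, an IgG gene in 83, Igha in 17 and Ighe in 1. A switched chain (IgG or IgA) led in 2.68%, 2.89% and 1.93% of cells in the p16-DTR-labelled libraries and in 1.46%, 1.29% and 2.11% in the controls. The means were 2.50% ± 0.50 and 1.62% ± 0.44 (SD, n = 3), and the exact two-sided permutation test gave p = 0.2 (0.6 adjusted over 3 share tests), where 3 against 3 libraries cannot go below 0.1.

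The balance of Ighm and Ighd also varied between libraries. Ighm gave 2.72, 3.87 and 3.10 UMIs for each Ighd UMI in B cells of the p16-DTR-labelled libraries and 2.64, 2.76 and 2.59 in the controls. Ighd was the leading chain in 11.2%, 8.04% and 11.7% of the typed B cells against 13.8%, 13.8% and 13.9%. The controls were close to each other and all above the 3 p16-DTR-labelled libraries in this share, a pattern noticed in these values and not tested. Fcer2a, which encodes CD23 and marks follicular B cells, was at 259 ± 33.9 CPM in B cells of the p16-DTR-labelled libraries and at 325 ± 16.5 in the controls (log2 fold change -0.29, adjusted p = 0.34 by edgeR), so its group mean moved with that of Ighd. By library, 82.78%, 67.37% and 72.31% of B cells had an Fcer2a UMI against 79.35%, 77.79% and 79.14% in the controls. The highest of these shares was in p16-DTR replicate 1, whose Ighd-led share was below every control. The part of Fcer2a in the Ighd values was not tested.

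Within each library, B cells were split by detection of Fcer2a, and 4 of the 9 members differed in the same direction in 6 of 6 libraries, although none passed after adjustment. How many of all genes differ in this way under the same split was not counted, so the 4 have no background beside them. The 3805 B cells with an Fcer2a UMI had Ighd at 1153 ± 102 CPM (SD over 6 libraries), and the 1187 without one had 479 ± 50.0. Ighm went the other way, at 2524 ± 156 with and 3990 ± 279 without Fcer2a. Both held in 6 of 6 libraries, with mean log2 differences of 1.27 and -0.66. Ighg3 (4.42 ± 3.60 with, 36.7 ± 31.4 without) and Igkc (5632 ± 391 with, 7421 ± 1397 without) were also lower with Fcer2a in 6 of 6 libraries. The values without Fcer2a were highest in control replicate 3 for Ighg3 (98.3) and in control replicate 1 for Igkc (10152), the library with the Igkc-rich cell described above. For each of these 4 genes the exact paired permutation test gave p = 0.031, the smallest that 6 libraries allow, or 0.070 adjusted over the 9 members. The other 5 members were less regular: Ighg2b, Ighg2c and Igha were higher with Fcer2a in 1 of 6 libraries, and Ighg1 and Jchain in 2 of 6. Switched cells were 0.42% to 1.85% of the typed cells with Fcer2a and 3.53% to 7.92% of those without, a mean difference of 4.57 ± 1.32 percentage points (higher without Fcer2a in 6 of 6 libraries, exact paired permutation p = 0.031, not adjusted). The median depth of the cells was similar, at 12347 to 14140 UMIs with and 12393 to 16686 without Fcer2a.

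**Figure D3:**
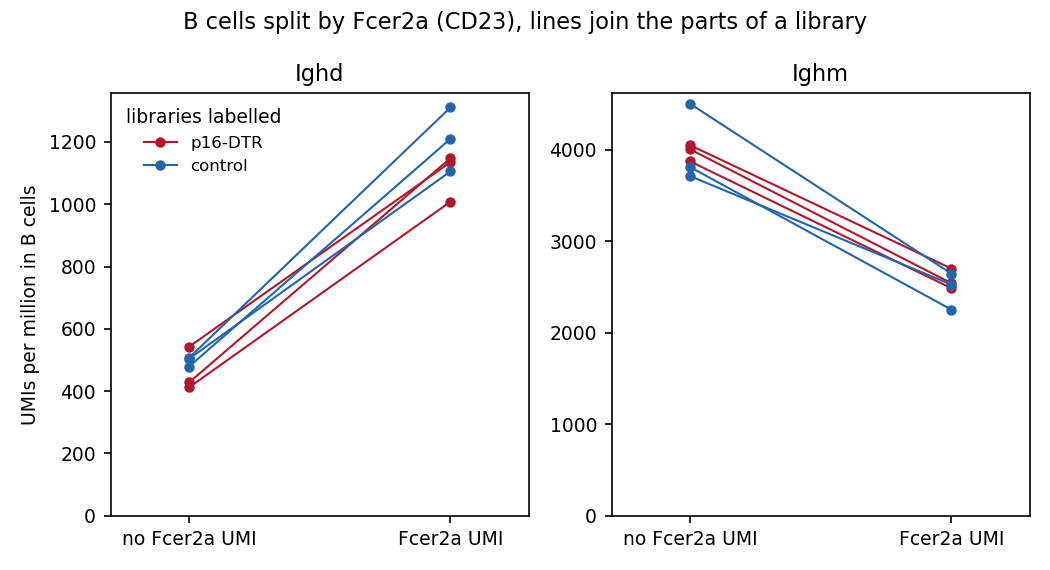
Ighd (left) and Ighm (right) in CPM, for the B cells of a library without and with a UMI of Fcer2a, with a line joining the values of each library (red, labelled p16-DTR; blue, control). Every Ighd line rises and every Ighm line falls.

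Immunoglobulin genes gave 33.0% to 49.7% of all UMIs of plasma cells, and Igkc was the most abundant member. It was at 271247, 344454 and 236862 CPM in the p16-DTR-labelled libraries and at 286127, 304936 and 224055 in the controls. Jchain was at 26535, 30142 and 22088 against 26309, 18683 and 25496. Ighm was at 42994, 98804 and 62569 against 62533, 119213 and 69909. The groups overlapped for all 3, and the log2 fold changes were 0.19 (SE 0.49), 0.30 (SE 0.33) and -0.16 (SE 0.52), each with adjusted p = 1.0 in edgeR's quasi-likelihood test. Ighd, which plasma cells switch off, was at 0.64 to 62.4 CPM in plasma cells against 813 to 1120 in B cells.

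The levels of the switched classes in plasma cells varied widely between libraries of the same group. Igha was at 40331, 5253 and 27829 CPM in the p16-DTR-labelled libraries and at 19620, 13004 and 25700 in the controls, and 1 cell gave 99.9% of the Igha of the p16-DTR replicate 2 library. Ighg2b was at 15474, 16022 and 11629 against 7238, 52.8 and 679. It was the 1 of 9 members whose groups did not overlap, against 5.56% of the 8345 genes tested in plasma cells (1.08% with the p16-DTR label higher), and its adjusted p was 1.0 (log2 fold change 2.51, SE 1.35). The log2 fold change was 5.57 without control replicate 1, 1.93 without control replicate 2 and 4.36 with the replicate number as a block, and none of these was called. One or a few cells carried these values: the top cell gave 53.0% to 99.2% of the Ighg2b UMIs of a library. Ighg1 was at 7997, 7835 and 0 against 172, 0 and 0, and a single cell gave all of it in the p16-DTR replicate 2 library. By UMI counting error, a count of 0 allows 1.51 to 1.80 CPM in the cells sampled. It sets no limit for plasma cells not sampled, because 1 cell can set the level of a library. Ighg2c was at 13999, 11190 and 8018 against 19878, 1631 and 0. Ighg3 reached at most 79.2 in any library.

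Almost every plasma cell transcribed 1 heavy chain. The leading heavy chain gave a median of 99.96% of a plasma cell's heavy-chain UMIs, and more than 95% in 151 of 155 cells, against a median of 69.1% in B cells, where Ighm and Ighd are made together. Of the 155 plasma cells, 81 were led by Ighm, 52 by Igha and 22 by an IgG gene (10 Ighg2c, 7 Ighg2b, 4 Ighg1 and 1 Ighg3). None was led by Ighd or Ighe. By counting error alone, 0 of 155 cells pooled over the libraries allows a share of up to 1.94%. Class switched chains thus led in 74 of 155 plasma cells and in 100 of 4941 B cells.

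The class make-up of plasma cells changed from library to library. IgA cells were 14 of 26, 1 of 24 and 9 of 24 in the p16-DTR-labelled libraries and 10 of 26, 5 of 26 and 13 of 29 in the controls. Their mean share was 31.8% ± 25.3 against 34.2% ± 13.3 (SD, n = 3), with an exact two-sided permutation p = 0.9. The lowest of these shares, 4.17%, has a 95% Wilson interval of 0.739% to 20.2%, and the highest, 53.9%, one of 35.5% to 71.2%. IgM cells were 5 of 26, 18 of 24 and 13 of 24 against 10 of 26, 20 of 26 and 15 of 29, or 49.5% ± 28.2 against 55.7% ± 19.5 (exact permutation p = 0.9). IgG cells numbered 7, 5 and 2 against 6, 1 and 1. The 4 Ighg1 cells were 3 from p16-DTR replicate 1 and 1 from p16-DTR replicate 2. No Ighg1 cell was found in p16-DTR replicate 3 or in the controls, where 0 of 26 cells in a library has a 95% Wilson interval reaching 12.9%.

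**Figure D4:**
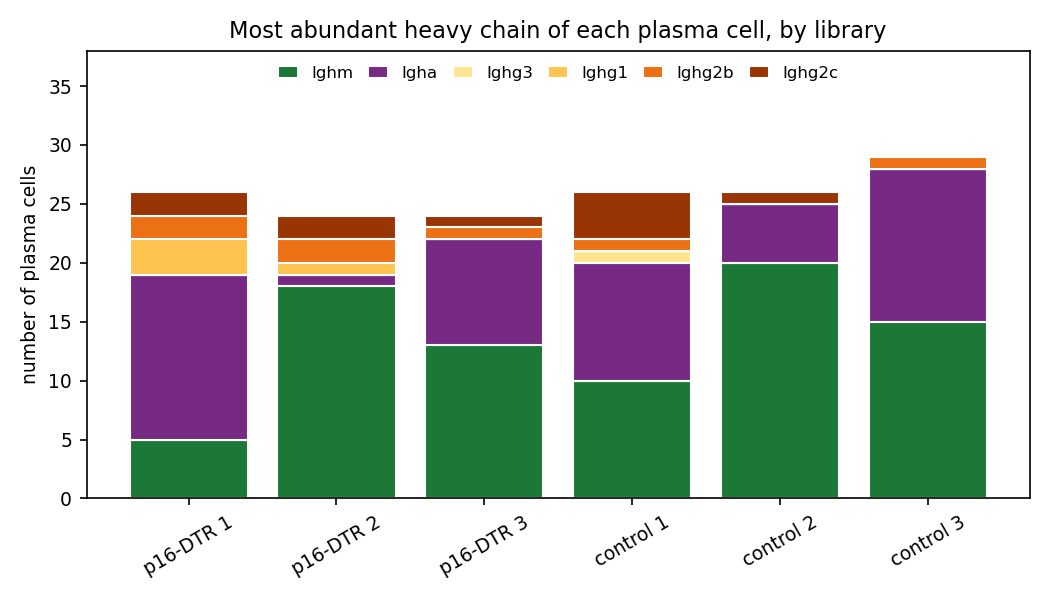
Number of plasma cells by most abundant heavy chain, stacked for each library from 0. IgA cells range from 1 (p16-DTR replicate 2) to 14 (p16-DTR replicate 1), and both extremes lie in the same group.

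Jchain was transcribed in plasma cells of all 3 classes, including the IgG cells whose heavy chains end without the tailpiece cysteine shown above. The median over cells was 22399 CPM in the 81 IgM cells, 19304 in the 52 IgA cells and 18442 in the 22 IgG cells, and 78, 52 and 22 of them had a Jchain UMI. Library medians ran from 5922 to 44048 in IgM cells, from 16244 to 89359 in IgA cells and from 7730 to 30431 in IgG cells, so the classes overlapped. Igkc showed a wider range, with a median of 328580 in IgM cells, 130737 in IgA cells and 387467 in IgG cells. The IgA median was below the IgM median in 5 of 6 libraries, the exception being p16-DTR replicate 2 with its single IgA cell. In B cells Jchain was at 5.70 to 88.2 CPM, with a UMI in 2.92% to 5.32% of cells, and in endothelial cells at 1.68 to 2.58.

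The light chain was kappa in nearly all plasma cells. Lambda UMIs (Iglc1, Iglc2 and Iglc3) outnumbered Igkc in 1 of 74 plasma cells from the p16-DTR-labelled libraries and in 1 of 81 from the controls. In B cells lambda led in 7.06%, 10.1% and 8.06% of cells in the p16-DTR-labelled libraries and in 5.96%, 6.19% and 6.03% in the controls, and these ranges did not overlap. The levels of 18.7% of the genes tested in B cells did not overlap between the groups either, and the lambda share was not tested. Iglc1, a lambda constant gene named after its values were seen, was in B cells at 482 ± 87.6 CPM against 321 ± 55.1 (log2 fold change 0.62, SE 0.15, adjusted p = 0.26 by edgeR). Iglc2 (log2 fold change 0.24) and Iglc3 (0.12) overlapped between the groups in B cells. In plasma cells Iglc3 was at 397, 419 and 508 CPM against 520, 2409 and 1267, without overlap (as for 5.56% of genes there) and in the opposite direction (log2 fold change -1.58, adjusted p = 1.0 by edgeR). Iglc1 (log2 fold change 1.33) and Iglc2 (-0.53) overlapped between the groups in plasma cells. Iglc2 and Iglc3 share stretches of sequence, 7.65% of those of Iglc2 and 10.7% of those of Iglc3, so reads may be split between them.

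Across the gates, edgeR's quasi-likelihood test called none of the members between the p16-DTR-labelled libraries and the controls. The count was 0 of 9 in B cells (percent called over all genes 0%), 0 of 9 in plasma cells (0.012%), 0 of 8 in other cells (0%) and 0 of 9 over all retained cells (0%). At an unadjusted p below 0.05 there were 2 members in B cells (Ighg2c and Igha, background 11.8%), 1 in plasma cells (Ighg1, 1.86%), 1 in other cells (Ighg1, 24.2%) and 1 over all cells (Ighg1, 23.3%). Groups did not overlap for 0 of 8 members in other cells (31.6% of genes, 9.27% with the p16-DTR label higher) and for 1 of 9 over all cells (30.9% and 8.55%), where Ighg2b was at 94.2, 96.0 and 72.2 CPM against 52.0, 1.87 and 6.34. DESeq2 called 0, 0, 1 and 1 members, against 1.08%, 0.036%, 12.8% and 12.8% of all genes. The member it called was Ighg1, over all cells (log2 fold change 5.31, adjusted p = 0.0026) and in other cells (3.18, adjusted p = 0.033).

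Ighg1, the IgG1 heavy chain, thus gave the largest log2 fold change of the members over all retained cells. It was at 45.3, 45.7 and 0.505 CPM in the p16-DTR-labelled libraries and at 1.04, 0.801 and 0.545 in the controls. p16-DTR replicates 1 and 2 were high and replicate 3 lay below all controls, so the groups overlapped, and edgeR gave an adjusted p of 0.14. In the 2 high libraries 97.1% and 97.6% of the Ighg1 UMIs lay in plasma cells, of which 4 were led by Ighg1. The effect of the group on the members was also compared between plasma and B cells, and no interaction passed (lowest adjusted p = 0.92 by edgeR, for Ighg1 and Ighg2b).

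Outside the B and plasma cell gates, the members were found at a low level. The other cells include 15426 cells without a class name, with Igkc at 45.7 to 412 CPM and Ighm at 41.4 to 235. Cells with more than 3 B cell markers, but too few for the B cell gate, fall among them. Sums over all other cells may therefore include B lineage cells. In endothelial cells and fibroblasts together, which make no antibody, each member's median level over libraries was 1.12% to 2.25% of its level in the whole library. Igkc was 2.66 to 5.51 times Ighm in endothelial cells and 2.56 to 6.31 times in plasma cells. Jchain was 5.14 to 8.60 UMIs per 100 Igkc UMIs in endothelial cells, 5.57 to 9.05 in monocytes and 6.13 to 11.4 in plasma cells, against 0.099 to 1.38 in B cells. Where plasma cells of a library were rich in Igha, so was this background: Igha per 100 Igkc UMIs was highest in p16-DTR replicate 1 and lowest in p16-DTR replicate 2 in plasma cells, endothelial cells, T cells, neutrophils and monocytes. In fibroblasts it was also lowest in p16-DTR replicate 2 but highest in p16-DTR replicate 3.

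Ighm did not follow that ratio. In cells gated as monocytes it was at 125, 136 and 106 CPM in the p16-DTR-labelled libraries and at 122, 128 and 130 in the controls, while endothelial cells and fibroblasts of the same libraries were at 5.42, 11.1, 7.82, 7.17, 11.9 and 10.9. The ratio to endothelial cells and fibroblasts was 14.3-fold in monocytes, 15.9-fold in interstitial macrophages, 12.5-fold in conventional dendritic cells, 10.1-fold in T cells, 7.31-fold in neutrophils and 6.33-fold in natural killer cells (geometric means over 6 libraries). Each was higher in 6 of 6 libraries, with an exact paired permutation p = 0.031, the smallest possible, and 0.045 adjusted over 16 comparisons (8 classes and 2 genes, chosen after the levels were seen). Alveolar type 1, mesothelial, lymphatic endothelial and pericyte or smooth muscle cells also had enough cells but were not compared. With p at its smallest possible value, the adjusted p depends on which comparisons were included, so it does not settle the call. Alveolar type 2 cells (0.810-fold) and ciliated cells (0.944-fold) were not above the endothelial cells and fibroblasts.

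In the 6 classes with high Ighm, Igkc lay closer to the stromal level than Ighm did. It was 0.904-fold the stromal level in monocytes and lower in 6 of 6 libraries (adjusted p = 0.045 over the same chosen comparisons, exact paired permutation test), and 1.52-fold in T cells and 1.48-fold in neutrophils, higher in 6 of 6 libraries with the same adjusted p. The higher Igkc of T cells was not seen in cells without B or plasma cell marker UMIs, given below. In alveolar type 2 cells (0.785-fold) and ciliated cells (0.829-fold) Igkc was lower in 6 of 6 libraries, also with an adjusted p of 0.045 by that test, and further from the stromal level than Ighm. Median depths were 45187 UMIs in alveolar type 2 cells, 39225 in ciliated cells, 29314 in monocytes, 16068.5 in T cells and 9703 in neutrophils. They were 16433 in endothelial cells and 24588 in fibroblasts, and the part of depth in the Igkc ratios was not tested. Igkc per Ighm UMI was 0.185 to 0.255 in monocytes, 0.435 to 0.724 in T cells and 0.603 to 0.854 in neutrophils, against 1.87 to 2.31 in B cells. Ighd was low beside Ighm in the same cells, with 0.280 to 1.12 Ighd UMIs per 100 Ighm UMIs in monocytes and 1.27 to 2.66 in T cells against 25.9 to 38.6 in B cells. By level, Ighd was at 1.136 to 2.547 CPM in T cells, above the endothelial cells and fibroblasts (0.613 to 1.025) of each library. In monocytes it was at 0.381 to 1.19, and these Ighd levels were not tested. When cells were thinned to 5000 UMIs, which left out 3 monocytes and 807 endothelial cells below that depth, 38.2% to 46.4% of monocytes had an Ighm UMI against 2.63% to 5.55% of endothelial cells. The unthinned medians were 89.9% and 14.4%, at median depths of 29314 and 16433 UMIs.

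Ighm was also higher in cells without B or plasma cell markers. Among cells with no UMI of any B or plasma cell marker, T cells were 10.8-fold and neutrophils 6.07-fold above the endothelial cells and fibroblasts, higher in 6 of 6 libraries. In these cells Igkc was 1.03-fold in T cells, higher in 2 of 6 libraries (exact paired permutation p = 0.78). In neutrophils Igkc was 1.38-fold, higher in 6 of 6 libraries. The endothelial cells and fibroblasts compared were those without marker UMIs too, and the other classes had fewer than 20 such cells, or no Ighm UMI, in at least 1 library. Plasmacytoid dendritic cells, of which 98 were gated (5 or more per library), held the highest Ighm level outside the B and plasma cell gates, at 810 to 1204 CPM, with Igkc at 53.6 to 537 and Ighd at 11.0 to 35.7. The 98 type 2 innate lymphoid cells were at 86.5 to 269 for Ighm and 19.1 to 48.7 for Igkc. Ighm was much lower in 67 alveolar macrophages, at 4.06 to 13.7 CPM, and in 381 basophils or mast cells, at 9.74 to 24.0. None of these 4 classes was tested, and each had fewer than 20 cells in at least 1 library. Ighm in monocytes was at 122 ± 15.4 in the p16-DTR-labelled libraries and 127 ± 3.74 in the controls, and in T cells at 89.2 ± 5.38 and 87.2 ± 9.40 (SD, n = 3). In interstitial macrophages it was at 122 ± 16.3 and 161 ± 29.5, with overlap between the groups. The groups did not overlap in 3 of the 16 classes, beside 31.6% of genes over other cells as a whole, and in all 3 Ighm was lower under the p16-DTR label. These were alveolar type 1 cells (4.76 ± 2.28 against 12.1 ± 3.88), alveolar type 2 cells (5.78 ± 1.31 against 8.80 ± 0.89) and ciliated cells (6.71 ± 0.68 against 10.3 ± 2.70), and the differences were not tested. They rest on few Ighm UMIs: 59 in 443 alveolar type 1 cells, 271 in 879 alveolar type 2 cells and 275 in 788 ciliated cells. Igkc in alveolar type 1 cells did not overlap either, at 17.73, 26.25 and 16.96 against 33.6, 37.7 and 35.96. In alveolar type 2 and ciliated cells Igkc overlapped between the groups. In interstitial macrophages Igkc was at 334 in the p16-DTR replicate 1 library, where 1 of 51 cells gave 85.7% of it, and between 27.7 and 48.0 elsewhere.

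**Figure D5:**
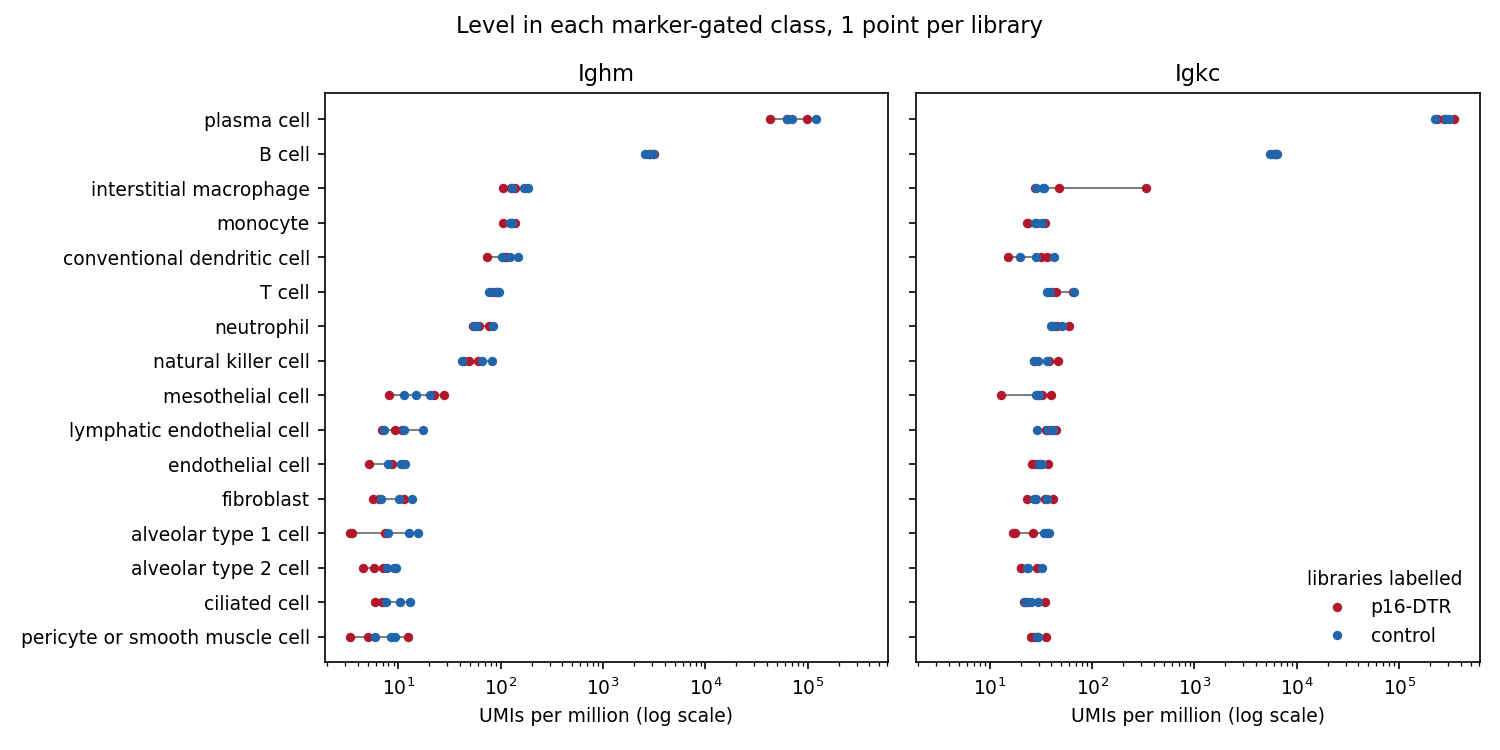
Ighm (left) and Igkc (right) in CPM on a log scale in 16 marker-gated classes with at least 20 cells in every library, ordered by the median of Ighm; each point is a library and grey lines span the range. Library medians of Igkc lie between 23.4 and 43.9 in the classes outside B and plasma cells, whereas Ighm separates interstitial macrophages, monocytes, dendritic cells, T cells, neutrophils and natural killer cells from the stromal and epithelial classes.

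Genes that act with the members were examined as 6 lists. No gene passed edgeR's adjusted threshold in any list or gate. The secretory and unfolded protein response list, which covers the folding machinery of antibody-secreting cells, had 21 of 21 genes tested in plasma cells and a median log2 fold change of 0.19, against -0.003 over all 8345 genes. Hsp90b1, an endoplasmic reticulum chaperone, was at 5644 ± 1726 CPM in plasma cells of the p16-DTR-labelled libraries and 4457 ± 580 in the controls. Hspa5, which encodes the chaperone BiP that binds free heavy chains, was at 1967 ± 371 against 1460 ± 214 (log2 fold change 0.54, adjusted p = 1.0 by edgeR). In B cells the same list had a median of 0.13 against -0.003 over 13224 genes, and 11 of its 21 genes had an unadjusted p below 0.05, beside 11.8% of all genes. In plasma cells 1 of its 21 genes did, beside 1.86% of all genes.

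The other lists are given by their medians in B cells and then in plasma cells. B cell receptor signalling had medians of -0.002 (15 of 15 genes tested) in B cells and 0.02 (14 of 15) in plasma cells, and class switching and B cell activation 0.02 (19 of 19) and -0.07 (14 of 19). Lyn, a kinase of the receptor, was at 1565 ± 22.8 CPM in B cells of the p16-DTR-labelled libraries and 1761 ± 101 in the controls. The remaining immunoglobulin constant genes had medians of 0.18 (4 of 6) and -0.53 (3 of 6). Irf4, a transcription factor of plasma cell fate and a marker of the plasma cell gate, was at 301 ± 52.0 and 281 ± 48.1 in plasma cells. The receptors and transporters of immunoglobulin had medians of -0.08 (10 of 12) and 0.09 (6 of 12), and the plasma cell niche and recruitment list 0.07 (10 of 15) and 0.11 (7 of 15). In B cells, edgeR's unadjusted p was below 0.05 for 1 of 15 tested genes of receptor signalling, 4 of 19 of class switching and 1 of 4 of the constant genes. It was below 0.05 for 3 of 10 both of the receptors and transporters and of the niche list. Fcmr, the receptor for IgM and a marker of the B cell gate, was at 441 ± 14.8 and 449 ± 24.4 in B cells. Cxcr4, which holds plasma cells in their niche, was at 114 ± 59.1 and 113 ± 42.0 in plasma cells. Levels of gate markers are partly set by the gating.

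In cells outside the gates all 6 lists had median log2 fold changes above the -0.02 of all 21207 genes. The medians were 0.73 for the remaining immunoglobulin constant genes (3 of 6 tested), 0.37 for B cell receptor signalling (15 of 15), 0.35 for receptors and transporters of immunoglobulin (12 of 12), 0.22 for the secretory list (21 of 21), 0.15 for class switching (19 of 19) and 0.14 for the niche list (14 of 15). Fcer1g, the signalling chain shared by Fc receptors, was at 325 ± 32.0 CPM there in the p16-DTR-labelled libraries and 218 ± 25.2 in the controls (log2 fold change 0.62, adjusted p = 0.12 by edgeR). Fcgrt, the neonatal Fc receptor that protects IgG from breakdown, was at 53.2 ± 3.43 and 59.1 ± 6.97. These cells are a mixture of classes, and fewer cells of a class and less RNA per cell cannot be told apart in their sum.

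Across the 16 classes, the genes outside the immunoglobulin loci with the most similar pattern were ranked by Pearson's r of log2 mean levels. For Ighd they included Cacna1i (0.99) and Pax5 (0.99), a marker of the B cell gate. For Jchain they were Oosp1 (0.99), Gm48370 (0.99) and Prg2 (0.97), and for Ighm Clec2g (0.97), 5830418P13Rik (0.93) and Irf4 (0.92), with Irf4 a gate marker. For Igkc they were Gm34215 (0.99), 5830418P13Rik (0.98) and Gm30211 (0.98), and for Igha Tnfrsf17 (0.98), a gate marker that encodes the survival receptor BCMA, Gm48370 (0.97) and Oosp1 (0.97). These values describe 16 points that share libraries, and the genes named for Jchain, Ighm, Igkc and Igha were all highest in plasma cells.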

How the data were processed

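Each deposited matrix gives the number of UMIs, as whole-number counts, for every feature in every barcode; per the file headers, the software was Cell Ranger 8.0.1. The submitters' processing notes name the build mm10. The annotation release and cell-calling settings are not given in the sources used here. Gene positions and sequences come from GENCODE M21 on GRCm38, to which 30934 of 31054 features matched.

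Barcodes were retained when they had 300 or more genes, 500 or more UMIs and no more than 15% of UMIs from mitochondrial genes. B cells needed at least 8 of 11 B cell markers. Plasma cells needed at least 9 of 12 plasma cell markers and at least 10 Mzb1 UMIs, and those that also passed the B cell gate were kept only when plasma cell markers gave more UMIs. Other classes needed at least 60% of their markers, each at 2 or more UMIs and at least 1 per 10000 UMIs, and at most 3 B cell markers. No doublet caller was run: cells with the markers of another class were left out (804 passing the B cell gate and 33 passing the plasma cell gate), as were 40 passing both gates with more B cell marker UMIs. Library depth was 254200305 to 344421685 UMIs. Intervals and limits for counts of 0 (3 counts) cover counting error only.

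UMIs were summed per library and gate and tested with edgeR 4.0.16 (R 4.3.3; filterByExpr, TMM, quasi-likelihood, Benjamini-Hochberg over all genes at 0.05, group alone in the design). Standard errors were derived from the F statistic. DESeq2 1.42.0, other scalings, filters, gates and left-out libraries were alternatives. Shares and paired differences were tested with exact permutation tests (scipy 1.17.1). The edgeR step was tested on simulated data, where few of the 2-fold changes were found in plasma cells and most were found in B cells. The changed genes were drawn at random from all genes tested, so the shares found do not carry over to the members. A member not called in plasma cells or in B cells may still differ by such an amount or by more. Standard errors of the members' log2 fold changes reached 2.81 in plasma cells (Ighg1) and 0.97 in B cells (Ighg2b). Replicates of a group differed by more than counting noise.

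The 9 members, the gene lists and the tests were chosen with earlier results of these data known. Gate thresholds were set after the marker distributions were seen, and the Fcer2a split, the comparison of Ighm between classes and some alternatives were added after the levels were seen. All members are named. Of each list, genes passing the adjusted threshold, or else up to 2 with the highest mean level in a gate, could be named, and the 3 features most alike across classes for each member. One feature that this rule names is not reported here.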

Additional observations from a re-analysis of the deposited data

How the results depend on the processing

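Counts of called members stayed at 0 under all alternatives run except DESeq2, which called 1 member in other cells and 1 over all retained cells. Over all genes, edgeR called 0, 1, 0 and 0 in B cells, plasma cells, other cells and all cells, DESeq2 143, 3, 2710 and 2769, and edgeR without a filter on low counts 68, 2, 8 and 0. Library size scaling moved the median log2 fold change of plasma cells to -0.10. Leaving out each library in turn kept the count of called members at 0 in each gate and the interaction count at 0. The IgA share difference of plasma cells, -2.34 points, turned to 1.21 when cells of 2 classes were kept, and leaving out single libraries moved it between -13.3 and 11.5, the IgM share difference between -19.0 and 8.88 and the switched share of B cells between 0.684 and 1.16.

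Signs of log2 fold changes that no test called turned as follows. With cells of 2 classes kept, B cell values became -0.33 for Ighm, 0.25 for Ighg3, -1.91 for Igha and -0.44 for Igkc, Igkc in plasma cells became -0.0104 and Ighm in other cells -0.11. Without very deep cells, Ighg2b and Jchain in B cells became 1.21 and 1.41, and in B cells with under 7 plasma cell markers 0.83 and 1.12. Ighg3 became 1.88 in plasma cells with under 8 B cell markers. In other cells with no B or plasma cell marker UMI, Ighm became -0.0761 and Jchain 0.0856, and with at most 3 B cell markers Jchain became 0.0490. Igkc over all cells became -0.0452 with library size only. Leaving out single libraries moved Ighg1 in B cells between -0.0122 and 1.02, Ighg2b between -2.27 and 0.73, Ighg3 between -0.72 and 0.33 and Jchain between -1.37 and 1.502. In plasma cells it moved Ighm between -0.71 and 0.24, Igha between -0.23 and 0.85 and Igkc between -0.11 and 0.38. In other cells it moved Ighm between -0.19 and 0.36, Igkc between -0.50 and 0.20 and Jchain between -0.44 and 0.21. Over all cells it moved Ighm between -0.50 and 0.0677, Ighg3 between -0.36 and 0.20, Igha between -0.26 and 0.91, Igkc between -0.14 and 0.11 and Jchain between -0.0721 and 0.29. The cause was not tested. Leaving out single libraries kept the direction of Ighm in monocytes and T cells against endothelial cells and fibroblasts and of Ighd and Ighm by Fcer2a, where 5 libraries cannot go below an exact p of 0.0625, and was not run for the other classes. Single libraries also moved Igha in B cells between 0.56 and 2.17 and Ighg2b in plasma cells between 1.93 and 5.57.

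The replicate block left 0 members called in each gate and turned Jchain in B cells to 0.0761 and Igkc over all cells to -0.00279. Under the block the share differences were 0.879, -2.34 and -6.24 points, with exact p = 0.5, 1.0 and 0.75. For each library the deviations of log2 levels from its group mean were taken. Between same-numbered libraries these deviations correlated at 0.44, -0.08 and 0.40 over all cells, and not every library correlated best with its own number. In plasma cells the values were 0.267, 0.152 and 0.052, and each p16-DTR library, but not each control, correlated best with its own number. Not every pair exceeded 0.1 in either set of cells, so the numbers were not taken as pairs. In plasma cells the block moved Ighg2b from 2.51 to 4.36 and Ighg2c from 0.67 to 3.36. With 24 to 29 plasma cells per library, shares of plasma cells are coarse.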
